A study of Mus musculus with 6 samples.

Results

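The cytosolic ribosomal protein genes were examined in FACS sorted mural cells and in microvascular fragments of the mouse brain. The genes were chosen by symbol from the NCBIM37 annotation. Protein-coding genes were taken whose symbol is Rpl or Rps followed by a digit, or *Rplp0*, *Rplp1*, *Rplp2* or *Rpsa*, and symbols of the S6 kinases and of pseudogenes were left out. This gave 85 of the 33460 genes in the files, 51 with a large subunit symbol and 34 with a small subunit symbol. The rule used no measured value. It also took in *Rps19bp1*, which encodes a binding partner of a ribosomal protein and no ribosomal protein itself, and it left out *Fau*, which encodes a ribosomal protein fused to a ubiquitin-like domain.

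All 6 libraries came from brains of mice at postnatal day 6 that carried both *Pdgfrb-eGFP* (line Tg(Pdgfrb-eGFP)JN169Gsat/Mmucd) and *NG2-DsRed*, so that controls and sorted cells shared both transgenes. The mural group (n = 3) was sorted by FACS for cells positive for both reporters, and the fragments group (n = 3) was captured with magnetic beads against the endothelial protein CD31 after collagenase digestion. According to the methods, 1 sagittal side of each of 3 brains went to each preparation, but the labels do not say which mural and fragment libraries share a brain. The reporters mark cells in which the promoters of *Pdgfrb* and of *Cspg4* (which encodes NG2) drive them. The fragments hold endothelial and mural cells together. By design, sorted cells were thus compared with a mixed preparation that contained them. Expression is given as FPKM, the number of sequenced fragments on a gene scaled to its exon length and to the depth of the library, with 1 value per gene and library.

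The labels were checked against cell type markers. All 12 mural markers were higher in the mural libraries, at a median of 910% of the fragment level. Of 12 endothelial markers 6 were lower, at a median of 72.8% over the list. Their summed level was 1786 to 2290 FPKM in the mural libraries against 2379 to 2776 FPKM in the fragments. The mural libraries thus also carried endothelial transcripts and were themselves mixed. All 8 microglial markers were lower in the mural libraries, with a summed level of 147 to 193 FPKM against 1821 to 2114 FPKM in the fragments. Of 7 astrocyte markers 0 were called by limma (1 was lower at an unadjusted p under 0.05), and their sum was 210 to 750 FPKM in the mural libraries, highest in the mural replicate 3, against 297 to 417 FPKM in the fragments. Of the neuronal markers 1 of 6 tested was lower, of the oligodendrocyte lineage markers 1 of 6 was higher and 1 lower, and of the 3 erythroid markers tested 0 were called, also without adjustment. Depth differed as well. A level of 1 FPKM on 1 kilobase of effective length stood for 1.77, 0.740 and 0.792 fragments in the mural libraries 1, 2 and 3 and for 4.23 to 4.61 fragments in the fragment libraries, so that the mural replicates 2 and 3 were the shallowest. Handling differed with the groups too. According to the methods, cells for sorting were dissociated to single cells with more concentrated collagenase, shaking and pipetting. The part of microglia, other cell types, depth and handling in the results on ribosomal protein genes was not tested. In bulk samples, fewer cells of a type and less RNA per cell cannot be told apart.

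Ribosomal proteins surround the ribosomal RNAs of the large subunit, which joins amino acids, and of the small subunit, which reads the mRNA. Most are present in a single copy per ribosome, and their mRNAs are among the most abundant of a growing cell. Many of these mRNAs begin with a C followed by an unbroken stretch of C and T bases (C and U in the RNA), the terminal oligopyrimidine tract, through which mTOR signalling and the RNA-binding protein Larp1 control their translation. A few ribosomal proteins have a paralogue from a second gene, some of which are restricted to tissues such as testis or muscle.

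The bases at the start site were read first, because they are the feature that ribosomal protein genes are known to share and that the symbol rule did not use. Of the 85 genes, 64 had an entry in the RefSeq start site table (build GRCm38.p6). A run of at least 7 consecutive C or T bases was searched on the transcribed strand alone, with its first base at most 10 bases before or after the annotated start. It was found in 27 of these genes (42.2%), against 4512 of 27025 genes with an entry (16.7%). A match is a description of these letters and not a functional site. The windows below hold 30 bases before and 20 bases from the start site onward, and capitals mark the longest C or T run that begins near the start. They are shown for a gene at a high level in both groups (*Rplp2*), for called genes (*Rps25*, *Rpl31*, *Rpl22*, *Rps27l*) and for the partners of the last 2 (*Rpl22l1*, *Rps27*), since these pairs are compared later.
*Rplp2* start site, chr7:141447621-141447670, plus strand: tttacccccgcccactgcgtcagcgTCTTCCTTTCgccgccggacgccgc
*Rps25* start site, chr9:44407684-44407733, plus strand: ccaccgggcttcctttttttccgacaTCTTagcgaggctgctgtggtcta
*Rpl31* start site, chr1:39367821-39367870, plus strand: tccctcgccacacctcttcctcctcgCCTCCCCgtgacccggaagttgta
*Rps27* start site, chr3:90213629-90213678, minus strand: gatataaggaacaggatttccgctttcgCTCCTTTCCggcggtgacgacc
*Rps27l* start site, chr9:66946056-66946105, plus strand: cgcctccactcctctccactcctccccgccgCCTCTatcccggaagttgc
*Rpl22* start site, chr4:152324406-152324455, plus strand: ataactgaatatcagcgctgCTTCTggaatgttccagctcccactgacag
*Rpl22l1* start site, chr3:28805478-28805527, plus strand: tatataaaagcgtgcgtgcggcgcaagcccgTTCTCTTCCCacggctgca

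The marked runs were 10 bases long in *Rplp2* and *Rpl22l1*, 9 in *Rps27*, 7 in *Rpl31*, 5 in *Rpl22* and *Rps27l* and 4 in *Rps25*. Longer stretches of C and T that begin further upstream, as in the *Rps25*, *Rpl31* and *Rps27l* windows, were not counted, so lengths depend on this rule and the annotated start. By the rule, *Rps27* had a longer run than *Rps27l*, and *Rpl22l1* a longer one than *Rpl22*. The median log2 fold change, mural minus fragments, was -0.34 over the 26 tested genes with a run and -0.19 over the 36 tested genes without one.

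Ribosomal protein genes were expressed at high levels in both groups. For this description the set was restricted to 78 canonical genes, which are 76 of the chosen genes without the paralogues and *Rps19bp1*, plus 2 ribosomal protein genes with other symbols. In the mural libraries their mean FPKM ran from 45.0 (*Rps28*) to 1442 (*Rpl13a*) with a median of 199.7, and in the fragments from 56.8 (*Rps18*) to 1375 (*Rpl13a*) with a median of 249.7. The median of all protein-coding genes at 1 FPKM or more was 14.9 FPKM in the mural libraries and 14.4 FPKM in the fragments. Of the 100 protein-coding genes with the highest mean FPKM, 19 were canonical ribosomal protein genes in the mural libraries and 29 in the fragments. FPKM are per length, so levels of different genes may be compared, although the proteins themselves are needed in equal numbers. Near-identical processed pseudogenes exist for many of these genes, and how the reads that match more than 1 copy were assigned is not given in the sources used here, so levels of single genes are uncertain to that extent.

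*Rpl13a*, a large subunit protein that is also released to silence mRNAs in inflammation, had the highest level. It was at 1312, 1466 and 1549 FPKM in the mural libraries and at 1295, 1449 and 1381 FPKM in the fragments. The groups overlapped (log2 fold change 0.07, SE 0.14, limma adjusted p = 0.77). Under quantile normalization its log2 fold change was 1.33 (limma adjusted p = 0.065). Next in order of the mean over all libraries stood *Rpl26*, *Rplp2* and *Rps23*. *Rpl26* was at 1090, 946 and 1066 FPKM in the mural libraries and at 1101, 1211 and 1032 FPKM in the fragments. *Rps23*, a protein of the decoding centre, was at 672, 560 and 606 FPKM against 681, 727 and 672 FPKM. In *Rpl26* and *Rps23* the groups overlapped, and the signs of their small log2 fold changes turned under quantile normalization.

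Together the 85 genes took up a smaller share of the expression values in the mural libraries. Their summed FPKM was 5.11%, 4.36% and 4.81% of the FPKM of all protein-coding genes in the mural replicates 1, 2 and 3, a mean of 4.76% ± 0.378 (SD, n = 3). In the fragments it was 5.61%, 5.78% and 5.18%, a mean of 5.53% ± 0.308 (SD, n = 3). Every mural library lay below every fragment library, with the mural replicate 1 and the fragments replicate 3 next to each other. The difference of -0.77 percentage points had p = 0.1 in a two-sided exact permutation test, which is the smallest p that 3 samples against 3 allow.

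**Figure D1:**
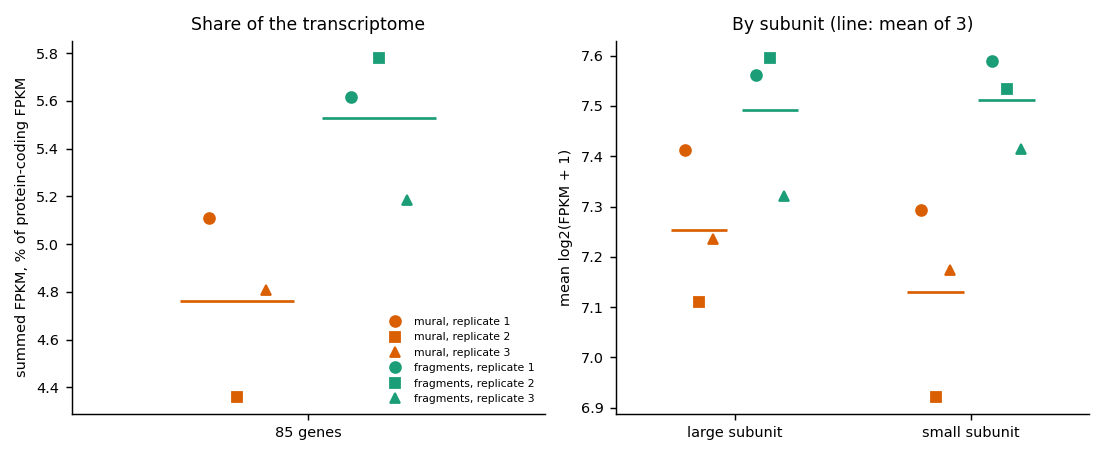
Left, summed FPKM of the 85 ribosomal protein genes as percent of the FPKM of all protein-coding genes, and right, mean log2(FPKM + 1) of the tested large and small subunit genes, both by sample (mural in orange, fragments in green, symbols by replicate number, lines at the mean of 3). The mural libraries lie at 4.36 to 5.11% and the fragments at 5.18 to 5.78%, and the axes do not start at 0.

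The difference was then tested gene by gene. Of the 85 genes, 83 passed the filter of 1 FPKM in at least 3 libraries. *Rpl10l*, a paralogue known from testis, was listed at 0 in all 6 libraries, and *Rpl39l*, likewise a testis paralogue, was listed at 0 except in the fragments replicate 3 (0.61 FPKM). limma was fitted on log2(FPKM + 1) over all 14801 genes that passed. Ribosomal protein genes were called lower in mural cells at an adjusted p under 0.05 in 10 of 83 cases (12.05%), beside 13% of all genes tested. The share is near that background and is not a result about ribosomal protein genes. None was called higher, beside 9.34% of all genes. At an unadjusted p under 0.05, 1 was higher (14.1% of all genes were) and 23 were lower (27.7%, beside 20.9% of all genes). With a ratio of mean FPKM under 0.5 as well, 2 remained, *Rps29* and *Rps27l*, beside 10.1% of all genes. A ratio above 2 was reached by 0 of the called genes, beside 6.43%.

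The direction was one-sided although most changes were small. A negative log2 fold change was found in 67 of 83 genes (80.7%), beside 58.3% of all genes tested. The median was -0.19 (quartiles -0.50 and -0.06), beside -0.12 over all genes and -0.10 over protein-coding genes. Expressed as the ratio of group means, the median gene was at 87.4% of its fragment level, within a range of 35.9 to 156%. Every mural library lay below every fragment library in 25 genes (30.1%), beside 24.5% of all genes, and above in 3 genes (3.61%), *Rplp2*, *Rpl14* and *Rps4y2*, beside 16.5%. Quantile normalization moved the median of all genes to -0.01, and the median over the ribosomal protein genes was then -0.20.

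**Figure D2:**
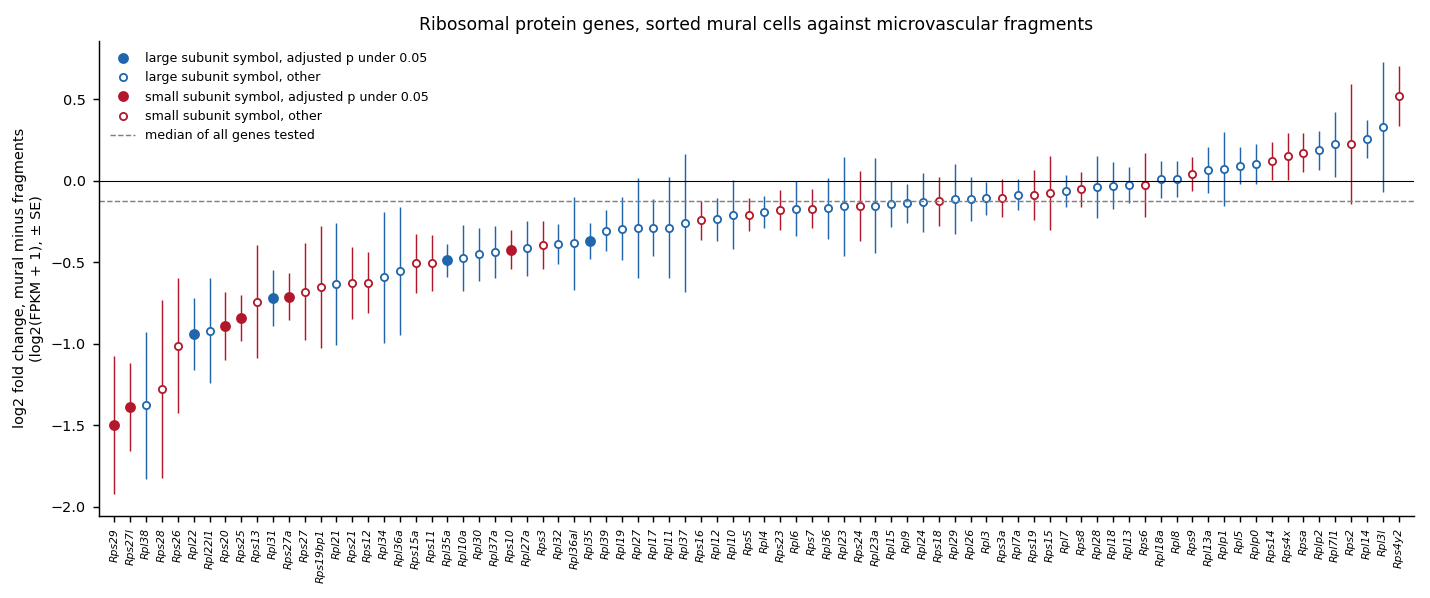
Log2 fold change (mural minus fragments, log2(FPKM + 1), with SE from limma, n = 3 and 3) of 82 tested genes in rising order, with large subunit symbols in blue, small subunit symbols in red and filled points for an adjusted p under 0.05. Of the points, 66 lie below 0, the 10 filled points are all below 0, and the dashed line marks the median of all genes tested (-0.12).

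The large and the small subunit genes were then set side by side by their symbols, so the small subunit list includes *Rps19bp1*. Of the large subunit genes 4 of 49 tested were called lower (8.16%), *Rpl22*, *Rpl31*, *Rpl35a* and *Rpl35*, and of the small subunit genes 6 of 34 (17.6%), *Rps25*, *Rps27l*, *Rps27a*, *Rps20*, *Rps29* and *Rps10*, beside 13% of all genes tested. Whether the subunits differed in this share was not tested. The median log2 fold change was -0.17 over the large and -0.22 over the small subunit genes, a gap of 0.05 that became 0.00 under quantile normalization and 0.13 without the mural replicate 2. The mean log2(FPKM + 1) of the large subunit genes was 7.41, 7.11 and 7.24 in the mural libraries and 7.56, 7.60 and 7.32 in the fragments, where the mural replicate 1 overlapped with the fragments replicate 3. For the small subunit genes it was 7.29, 6.92 and 7.17 against 7.59, 7.53 and 7.41, without overlap. The large minus small difference within a library was 0.12, 0.19 and 0.06 in the mural libraries and -0.03, 0.06 and -0.09 in the fragments, where the lowest mural and the highest fragment value overlapped narrowly.

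*Rps25*, a small subunit protein that several viral internal ribosome entry sites depend on, had the smallest adjusted p. The gene (chr9:44215797-44218488, plus strand, NCBIM37) was at 80.2, 63.8 and 65.8 FPKM in the mural libraries and at 115.7, 143.6 and 119.1 FPKM in the fragments. The groups did not overlap, and the ratio of means was 0.555 (log2 fold change -0.84, SE 0.14, limma adjusted p = 0.0052). Behind these values stood 67, 23 and 25 fragments in the mural libraries and 258, 299 and 271 in the fragment libraries. It was the one gene called in all 15 alternative settings.

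*Rps29*, a small zinc-binding protein of the small subunit, had the lowest log2 fold change. It was at 166, 53.9 and 59.8 FPKM in the mural libraries and at 248, 288 and 174 FPKM in the fragments (log2 fold change -1.50, SE 0.42, limma adjusted p = 0.042). The groups did not overlap, but the mural replicate 1 lay next to the fragments replicate 3. Fragments of *Rps29* were not counted, since it has 2 annotated transcripts, the longest of 461 bases. The call held in 7 of 15 alternative settings and was lost when any one of the libraries other than the mural replicate 1 was left out (adjusted p up to 0.13). *Rps20*, a protein of the small subunit head, was at 155, 94.4 and 93.0 FPKM against 219, 214 and 187 FPKM (ratio 0.553, limma adjusted p = 0.021). *Rps27a*, which encodes ubiquitin fused to a small subunit protein, was at 180, 155 and 128 FPKM against 253, 265 and 236 FPKM (ratio 0.614, limma adjusted p = 0.012). In both genes every mural library lay below every fragment library, with the mural replicate 1 highest in its group. *Rps10*, which is ubiquitinated on stalled ribosomes, was at 85.2, 79.3 and 78.7 FPKM against 115.6, 95.6 and 116.4 FPKM (ratio 0.742, limma adjusted p = 0.043). This call held in 5 of 15 alternative settings.

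Of the large subunit genes, *Rpl22* was the furthest from its fragment level among those called. Its protein binds viral and cellular RNAs and is dispensable for bulk translation. The gene (chr4:151699851-151708180, plus strand, NCBIM37) was at 178, 95.4 and 113 FPKM in the mural libraries and at 257, 235 and 228 FPKM in the fragments, without overlap (ratio 0.537, log2 fold change -0.94, SE 0.22, limma adjusted p = 0.022). *Rpl31* and *Rpl35* encode proteins at the exit of the peptide tunnel. *Rpl31* was at 69.7, 52.9 and 53.1 FPKM against 103, 109 and 79.1 FPKM (ratio 0.602, limma adjusted p = 0.023). *Rpl35* was at 451, 420 and 418 FPKM against 524, 564 and 576 FPKM (ratio 0.774, limma adjusted p = 0.049). *Rpl35a*, mutated in some patients with Diamond-Blackfan anaemia, was at 189, 171 and 171 FPKM against 249.97, 239 and 257 FPKM (ratio 0.713, limma adjusted p = 0.014). None of these 3 genes overlapped between the groups, and *Rpl35* kept its call in 4 of 15 alternative settings, *Rpl31* in 10 and *Rpl35a* in 12.

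**Figure D3:**
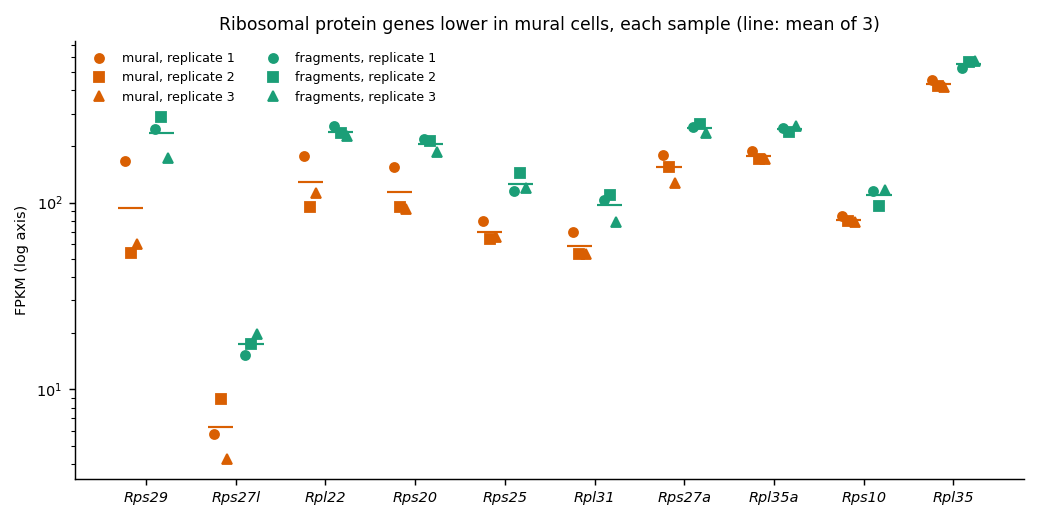
FPKM on a log axis of the 10 genes called lower in mural cells, in order of log2 fold change, for each mural (orange) and fragment (green) library, with symbols by replicate number and lines at the mean of 3. In every gene the 3 mural points lie below the 3 fragment points, and in *Rps29*, *Rpl22* and *Rps20* the mural replicate 1 stands above the other two mural libraries.

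Several genes had lower values without passing the test, because their libraries differed within a group. *Rpl38*, which is needed for the translation of Hox mRNAs, was at 173, 56.1 and 109 FPKM in the mural libraries and at 329, 363 and 159 FPKM in the fragments (log2 fold change -1.38, SE 0.45, limma adjusted p = 0.069). The mural replicate 1 and the fragments replicate 3 overlapped. Without the mural replicate 1 its adjusted p was 0.034, and without the fragments replicate 3 it was 0.048 (limma). *Rps28* was at 60.9, 14.5 and 59.6 FPKM against 118, 111 and 61.0 FPKM, and *Rps26*, a protein at the mRNA exit channel, was at 156, 48.5 and 129 FPKM against 215, 238 and 158 FPKM. In both the mural replicate 2 was the lowest library, and the fragments replicate 3 lay just above the mural range. The 48.5 FPKM of *Rps26* rested on 9 fragments. Fragments of *Rpl38* and *Rps28* were not counted, since they have 4 and 7 annotated transcripts, the longest of 457 and 812 bases.

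Genes at the other end of the order did not pass the test. The acidic stalk of the large subunit, which recruits the elongation factors, consists of Rplp0, Rplp1 and Rplp2. *Rplp2* was at 832, 821 and 868 FPKM in the mural libraries and at 737, 794 and 686 FPKM in the fragments, so that every mural library lay above every fragment library (log2 fold change 0.19, SE 0.12, limma adjusted p = 0.32). *Rplp0* was at 458, 428 and 486 FPKM against 426, 387 and 464 FPKM, and *Rplp1* at 641, 358 and 521 FPKM against 552, 422 and 442 FPKM. The groups overlapped in both. The log2 fold change of *Rplp1* was 0.07, and it turned to -0.12 without the mural replicate 1. *Rpl14* was at 376, 323 and 359 FPKM against 308, 309 and 268 FPKM without overlap (log2 fold change 0.26, limma adjusted p = 0.17). *Rps2* was at 208, 145 and 204 FPKM against 206, 83.2 and 222 FPKM, where the lowest library was the fragments replicate 2, and its log2 fold change of 0.23 became -0.22 without that library.

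*Rpsa*, *Rpl5*, *Rpl11*, *Rps6*, *Rps19* and *Rps14* were listed for known roles, and none of these 6 passed the test. *Rpsa*, which also encodes a laminin-binding protein, was at 269, 287 and 242 FPKM in the mural libraries and at 260, 224 and 223 FPKM in the fragments (log2 fold change 0.17, limma adjusted p = 0.35). *Rpl5* and *Rpl11*, whose proteins bind Mdm2 when ribosome assembly fails, had log2 fold changes of 0.09 (SE 0.11) and -0.29 (SE 0.31). *Rps6*, the substrate of the S6 kinases, was at 422, 280 and 429 FPKM against 390, 418 and 326 FPKM, and its log2 fold change of -0.02 (SE 0.20) turned sign under median-ratio scaling. *Rps19*, the gene most often mutated in Diamond-Blackfan anaemia, was at 150, 198 and 212 FPKM against 208, 180 and 201 FPKM (log2 fold change -0.08, SE 0.15). *Rps14*, a small subunit gene linked to the anaemia of a myelodysplastic syndrome, had 0.12 (SE 0.12). In all of these genes the libraries of the groups overlapped. *Rps19bp1*, which is no ribosomal protein gene, was at 9.01, 4.26 and 14.1 FPKM against 14.8, 14.1 and 11.9 FPKM, with 10, 2 and 7 fragments behind the mural values.

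The genes furthest below their fragment level encode short proteins, so the log2 fold change was set against coding length. Over the 78 canonical genes, whose coding lengths run from 156 to 1260 bases, Spearman's rho was 0.57, a description across genes that share the same libraries. In the 39 genes with a coding length under the median of 457.5 bases the median log2 fold change was -0.39, and 35 were negative. In the 39 longer genes it was -0.13, and 29 were negative. Of the 9 called canonical genes, 7 belonged to the shorter and 2 to the longer group. The share of all genes called was not taken by length, so these counts have no background. The same cut applied to 13337 other protein-coding genes gave -0.19 over the shorter and -0.09 over the longer genes, with a rho of 0.02. Of these, 692 of 1108 shorter and 6891 of 12229 longer genes were negative. Among the 1791 of them with a mean of at least 50 FPKM it gave 0.12 and 0.09, with a rho of 0.00. There 58 of 142 shorter and 715 of 1649 longer genes were negative. The split by length was made after the values were seen and carries no test.

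Within single libraries the gap between shorter and longer genes was not the same in all replicates. The mean log2(FPKM + 1) of the shorter minus that of the longer canonical genes was -0.09, -0.44 and -0.18 in the mural replicates 1, 2 and 3. In the fragments it was 0.13, 0.19 and -0.09. The mural replicate 1 and the fragments replicate 3 thus had almost the same value, and the mural replicate 2, the shallowest library, had the lowest. The difference between the groups was -0.31, and it was -0.21 without the mural replicate 2 and -0.39 without the fragments replicate 3. The mural replicate 1 and the fragments replicate 3 also stood next to each other in the summed share and in *Rps29*, *Rpl38*, *Rps28* and *Rps26*. The part of depth in these values was not tested.

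**Figure D4:**
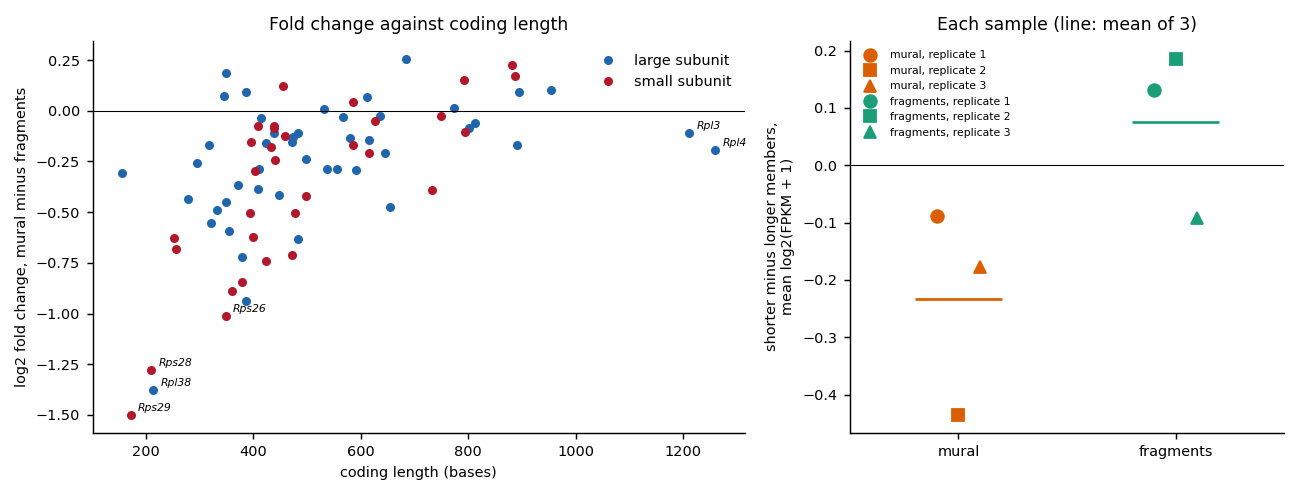
Left, log2 fold change (mural minus fragments) of the 78 canonical genes against coding length in bases, with large subunit genes in blue and small subunit genes in red, and right, mean log2(FPKM + 1) of the shorter minus the longer canonical genes in each library (symbols by replicate number, lines at the mean of 3). *Rps29*, *Rpl38*, *Rps28* and *Rps26* lie at the lower left, and the mural libraries run from -0.44 to -0.09 against -0.09 to 0.19 in the fragments.

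Paralogue pairs were compared by the log2 ratio of FPKM + 1 within each library, so that each gene was set against its partner in the same library. Of 8 pairs, 6 had a paralogue at 1 FPKM or more in at least 3 libraries. The coding sequences of 2 pairs are shown, because in *Rps27l* the paralogue was among the called genes and in *Rpl22* the canonical gene was. They are the GENCODE sequences of NCBIM37, and capitals mark the bases that differ between the aligned pair or stand against a gap.
*Rps27* coding sequence: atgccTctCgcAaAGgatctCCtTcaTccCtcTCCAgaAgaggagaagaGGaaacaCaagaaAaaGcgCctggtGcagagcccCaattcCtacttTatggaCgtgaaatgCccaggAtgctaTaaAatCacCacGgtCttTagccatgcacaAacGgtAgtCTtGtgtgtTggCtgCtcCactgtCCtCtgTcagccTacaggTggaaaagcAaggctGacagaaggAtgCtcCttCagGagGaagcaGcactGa
*Rps27l* coding sequence: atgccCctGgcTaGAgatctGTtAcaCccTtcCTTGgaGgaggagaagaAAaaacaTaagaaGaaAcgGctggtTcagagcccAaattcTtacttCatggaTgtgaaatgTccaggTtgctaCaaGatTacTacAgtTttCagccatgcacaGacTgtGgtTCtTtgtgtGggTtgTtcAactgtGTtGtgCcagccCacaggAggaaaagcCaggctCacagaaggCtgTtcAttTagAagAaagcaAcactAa
*Rpl22* coding sequence, bases 88 to 387: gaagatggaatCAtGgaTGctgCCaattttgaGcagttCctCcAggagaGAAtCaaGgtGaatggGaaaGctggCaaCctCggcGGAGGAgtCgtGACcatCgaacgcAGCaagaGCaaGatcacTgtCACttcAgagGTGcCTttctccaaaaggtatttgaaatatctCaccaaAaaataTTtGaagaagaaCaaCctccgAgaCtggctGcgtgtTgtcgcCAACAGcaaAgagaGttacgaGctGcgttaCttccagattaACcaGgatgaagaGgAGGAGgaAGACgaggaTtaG
*Rpl22l1* coding sequence, bases 70 to 369: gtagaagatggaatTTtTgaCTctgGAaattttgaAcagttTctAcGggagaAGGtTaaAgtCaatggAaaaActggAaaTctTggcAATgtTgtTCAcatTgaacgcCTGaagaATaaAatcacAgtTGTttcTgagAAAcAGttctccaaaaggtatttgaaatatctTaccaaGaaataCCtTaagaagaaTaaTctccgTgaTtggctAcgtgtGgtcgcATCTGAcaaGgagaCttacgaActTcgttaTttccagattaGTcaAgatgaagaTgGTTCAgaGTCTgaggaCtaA

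*Rps27* (chr3:90016593-90017573, minus strand) and *Rps27l* (chr9:66793893-66797323, plus strand) differed at 61 of 255 aligned bases (76.1% identical), and their longest identical run was 11 bases. *Rpl22* and *Rpl22l1* (chr3:28704358-28706274, plus strand) differed at 110 of 369 aligned bases (70.2% identical), with a longest identical run of 26 bases. Over all 8 pairs identity ran from 59.9% (*Rpl7l1* and *Rpl7*) to 87.9% (*Rpl36al* and *Rpl36a*), and the longest identical run was 38 bases (*Rpl39l* and *Rpl39*).

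*Rps27l*, which p53 is known to induce, was low in both groups and lower in mural cells. It was at 5.75, 8.94 and 4.25 FPKM in the mural libraries and at 15.3, 17.5 and 19.8 FPKM in the fragments, without overlap (ratio 0.359, log2 fold change -1.39, SE 0.27, limma adjusted p = 0.011). The call held in 14 of 15 alternative settings. Its fragments were not counted, since it has 6 annotated transcripts, the longest of 575 bases. At the mural depth given above, such levels on a transcript this short stand for few fragments. Its canonical partner *Rps27* was at 426, 198 and 301 FPKM against 532, 559 and 354 FPKM and overlapped between the groups (log2 fold change -0.68, SE 0.30, limma adjusted p = 0.15). *Rps27l* amounted to 2.05% of *Rps27* in the mural libraries and 3.65% in the fragments. The log2 ratio was -5.98, -4.33 and -5.85 in the mural libraries and -5.03, -4.92 and -4.09 in the fragments. The mural replicate 2 lay within the range of the fragments, and the difference of -0.71 had p = 0.3 in an exact permutation test (0.72 after Benjamini-Hochberg adjustment over 6 pairs). It was -1.24 without the mural replicate 2, -0.41 without the mural replicate 1 and -0.41 without the fragments replicate 3.

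*Rpl22l1* had lower values beside the lower *Rpl22*, and the mean log2 ratio of the pair differed by 0.02 between the groups. *Rpl22l1* was at 17.9, 9.24 and 8.80 FPKM in the mural libraries and at 28.8, 16.0 and 24.3 FPKM in the fragments (log2 fold change -0.92, SE 0.32, limma adjusted p = 0.083). Only 9, 2 and 2 fragments stood behind the mural values, against 39, 20 and 34 in the fragments. The log2 ratio to *Rpl22* was -3.25, -3.23 and -3.54 in the mural libraries and -3.11, -3.79 and -3.18 in the fragments, with overlap. *Rpl22l1* was at 9.29% of *Rpl22* in the mural libraries and at 9.61% in the fragments. The difference of 0.02 (exact permutation p = 1) ran from -0.20 to 0.14 when single libraries were left out.

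*Rps4y2*, listed in RefSeq as *Rps4l* and as a transcribed pseudogene, had the largest log2 fold change of the list in the fit reported here, although *Rpl3l* exceeded it with a pseudocount of 0.1 and *Rpl13a* and *Rpl3l* did under quantile normalization. It was at 23.7, 23.5 and 30.8 FPKM in the mural libraries and at 20.7, 17.7 and 15.0 FPKM in the fragments, without overlap (log2 fold change 0.52, SE 0.18, limma adjusted p = 0.086). It was the gene with an unadjusted p under 0.05 in the higher direction. Its share of *Rps4x*, the X-linked canonical gene, was 5.80% in the mural libraries and 4.38% in the fragments. The log2 ratios overlapped, and the difference of 0.37 had p = 0.5 in an exact permutation test (0.13 to 0.52 with single libraries left out). The remaining pairs gave differences of 0.44 for *Rpl3l*, a muscle paralogue at 0 to 1.60 FPKM, 0.29 for *Rpl7l1* and 0.17 for *Rpl36al*, with exact permutation p of 0.4, 0.4 and 0.6. With single libraries left out they ran from 0.13 to 0.68, from 0.10 to 0.41 and from 0.03 to 0.41. After adjustment over the 6 pairs the p-values were 0.72 or 1. *Rpl36al* was the one paralogue at a level near its partner, at 72.3% of *Rpl36a* in the mural libraries and 64.4% in the fragments. None of the 6 pairs differed beyond the spread of the samples, and 3 samples against 3 cannot give a p under 0.1.

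**Figure D5:**
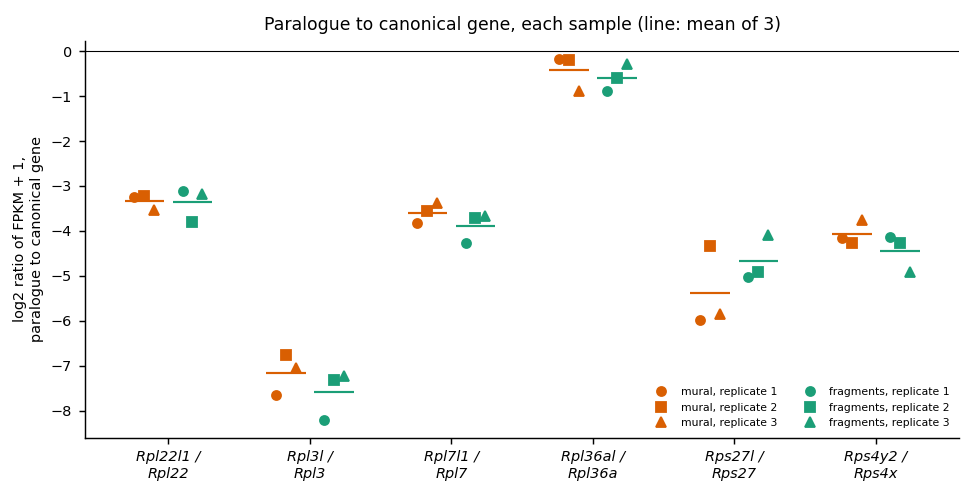
Log2 ratio of FPKM + 1 of each paralogue to its canonical gene in each mural (orange) and fragment (green) library, with symbols by replicate number and lines at the mean of 3. The libraries of the groups overlap in all 6 pairs, from *Rpl3l* at -8.20 to -6.76 up to *Rpl36al* at -0.89 to -0.17.

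Other genes of translation were counted in the same fit, in which 13% of all genes were lower and 9.34% higher. The counts in each list below are read against these shares, and no list was tested as a whole. *Fau* was at 516, 423 and 380 FPKM in the mural libraries against 504, 565 and 538 FPKM in the fragments. It was not called, also without adjustment. Of 16 elongation factors and cofactors 1 was called, *Pabpc1*, the poly(A)-binding protein, which was lower, at 218 to 224 FPKM in the mural libraries against 334 to 362 FPKM in the fragments (ratio 0.628, limma adjusted p = 0.0031). The median log2 fold change over this list was 0.02. *Eef1a1*, the elongation factor that delivers tRNAs, had 0.13, *Eef2*, the translocation factor, 0.21, *Tpt1* -0.02, *Gnb2l1*, which encodes the ribosome-bound scaffold Rack1, -0.02 and *Npm1*, a nucleolar chaperone, -0.30.

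Of 35 initiation factors 1 was higher, *Eif3d* (ratio 1.41), and 3 were lower, *Eif1* (0.513), *Eif4a2* (0.659) and *Eif4a1* (0.715), with a median log2 fold change of -0.05. *Eif1*, which guards start codon choice, was at 94.2 to 113 FPKM in the mural libraries against 178 to 234 FPKM in the fragments. Of 41 ribosome biogenesis genes 2 were called, both lower, the nucleolar genes *Ncl* (ratio 0.612) and *Nop2* (0.527), with a median of -0.24. Of 24 tested genes of mTOR and S6 kinase signalling 5 were called, all lower, with a median of -0.04 over the list. They were *Rps6ka1* (ratio 0.360), *Tsc1* (0.624), *Rptor* (0.528), *Deptor* (0.347) and *Eif4ebp3*. *Eif4ebp3* was listed at 0 in all 3 mural libraries and at 1.19 to 1.96 FPKM in the fragments. It passed the filter through the fragments alone, so it could only come out as lower. *Rps6ka1*, which encodes a kinase of the S6 protein, was at 15.7 to 20.4 FPKM against 42.1 to 55.7 FPKM. Of 76 tested genes of the mitochondrial ribosome 3 were called, all higher (below the share over all genes), *Mrps34* (ratio 2.03), *Mrpl10* (1.63) and *Mrps35* (1.79), with a median of 0.04. The microglial markers named at the outset moved with the same groups, and their part in these calls was not tested.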

How the data were processed

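According to the authors, libraries were made with a stranded total RNA kit for low input after depletion of ribosomal RNA. Alignment to NCBIM37 used TopHat2 2.0.4, duplicates were taken out by Picard 1.92, and Cufflinks 2.2.1 gave the FPKM. The deposited values are FPKM per Ensembl gene and library. Low values of genes with a single transcript were whole multiples of 1 fragment (98.5 to 98.8% within 0.03) when 190 to 210 bases were subtracted from the length, so FPKM of short transcripts rest on a small effective length. Intervals were not computed, since FPKM of genes with several transcripts give no counts.

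Of 9 identifiers listed more than once 1 line was kept. log2(FPKM + 1), for genes with FPKM of at least 1 in at least 3 libraries, was fitted with limma 3.58.1 (R 4.3.3, intensity trend, Benjamini-Hochberg adjustment over 14801 genes), and the fit was tested on simulated data. Fold changes on this scale understate the change of low genes. Single values were tested by exact permutation (SciPy 1.17.1), two-sided. Coding length was that of the first GENCODE transcript. The labels do not tie replicate numbers to animals, so the main fit used no pairs. Its p-values measure the spread between these samples and treat them as independent, although each brain gave both preparations. Named genes were the pairs, the 5 highest and lowest by level and by log2 fold change, called genes and genes with known roles. Some genes that this rule names are not reported here. The members and lists were chosen with earlier results of these data known. The alternatives were other scalings, filters, pseudocounts and thresholds, a fit without trend, the replicate block, and leaving out each library.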

Additional observations from a re-analysis of the deposited data

How the results depend on the processing

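The number of genes called lower (10) fell to 5 without the intensity trend and to 1 at an adjusted p under 0.01, and ran from 2 to 15 when single libraries were left out (2, 3 and 6 without the fragments replicates 1, 2 and 3, and 15, 6 and 6 without the mural replicates 1, 2 and 3). The share of all genes called lower moved too, to 5.15 to 5.77% without a fragment library and 12.4 to 14.7% without a mural library. The number with a ratio under 0.5 as well (2) was 1 with no filter, without the trend, with a pseudocount of 0.1 and over the canonical genes alone, 0 at an adjusted p under 0.01, and 1 to 6 when single libraries were left out. With single libraries left out, the gap between subunits ran from 0.024 to 0.13 (0.00 under quantile normalization) and the difference between shorter and longer genes, an alternative chosen after seeing the data, from -0.39 to -0.21. The median over the ribosomal protein genes stayed negative in all settings run (-0.29 to -0.15).

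Some signs turned, among log2 fold changes that did not pass the test. *Rps6* was at 0.0090 under median-ratio scaling, and *Rpl26* and *Rps23* were at 0.29 and 0.0090 under quantile normalization, which also moved *Rpl13a* from 0.07 to 1.33. The ratio of *Rpl22l1* to *Rpl22* differed by -0.029 with a pseudocount of 0.1 and by -0.20 to 0.14 when single libraries were left out. Leaving out single libraries gave ranges of -0.0080 to 0.55 for *Rpl3l*, -0.13 to 0.18 for *Rps6*, -0.12 to 0.30 for *Rplp1*, -0.22 to 0.48 for *Rps2* and -0.18 to 0.065 for *Rps19*. The cause was not tested.

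The replicate numbers are shared between the groups, but the labels do not tie them to animals. The deviations of libraries with the same number correlated at 0.08, 0.02 and 0.05, and every library correlated best with its own number. Levels of *Rpsa-ps10* and *Rps2-ps13*, given below, were also alike within a number, while those of *Rpl34-ps1* were not. These are hints from the data and not from the labels. With the replicate block 12 genes were lower and 0 higher, *Rpl34*, *Rps15a*, *Rps21* and *Rpl22l1* were then called (limma adjusted p = 0.019, 0.034, 0.035 and 0.039), and *Rps10* (0.069) and *Rpl35* (0.099) were not. Over all genes the block gave 1651 lower and 1206 higher, against 1927 and 1383. *Rpl22l1*, *Rps26* and *Rps19bp1* rest on under 10 fragments in some mural libraries, which limits their precision. The fragments of *Rps27l*, *Rps29*, *Rpl38* and *Rps28* were not counted, since these genes have several annotated transcripts. Their values in the mural replicate 2, the shallowest library, also stand for few fragments.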

Other observations

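Pseudogenes of ribosomal proteins were counted apart. The files hold 142 genes with a pseudogene symbol of this family, of which 51 had a mean of at least 1 FPKM. Their summed FPKM was 2.02%, 4.19% and 4.55% of that of the ribosomal protein genes in the mural replicates 1, 2 and 3, and 2.40%, 4.32% and 4.63% in the fragments replicates 1, 2 and 3. The value thus differed more between replicate numbers than between mural cells and fragments. *Rpsa-ps10* was at 12.3, 161 and 292 FPKM in the mural libraries and at 11.8, 147 and 277 FPKM in the fragments of the same numbers. *Rps2-ps13* was at 37.4, 159 and 133 FPKM against 41.8, 144 and 140 FPKM. *Rpl34-ps1* did not have this pattern, with 163, 146 and 183 FPKM against 179, 386 and 252 FPKM. These genes were picked after their values were seen, and the reason for the likeness of libraries with the same number was not tested.

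Many ribosomal protein genes carry small nucleolar RNA genes in their introns. In the annotation 59 small nucleolar RNA genes lay within the span of 30 of the 85 genes, with *Snora78* in *Rps2* on the opposite strand. The median log2 fold change was -0.20 over these 30 host genes and -0.18 over the other 53 tested genes. Of the 85 genes 14 lay on chromosome 7, more than on any other chromosome.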
